A study of Mus musculus with 4 samples.

Results

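The subject is 10 genes for amino acid transporters of the liver, of 27968 gene names on the array, namely Slc38a2, Slc38a4, Slc38a3, Slc3a2, Slc7a5, Slc43a1, Slc1a2, Slc1a4, Slc7a2 and Slc25a22. Their members on the array are all non-control probes that carry one of these gene names, which gave 19 probes of 41174. Of the 10 genes, 5 had 1 probe each and 5 had several, up to 4.

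The study hybridised liver RNA from 4 female BALB/c mice to 4 one-colour oligonucleotide arrays. The LB1 group held 2 mice inoculated in a study of an ostrich Lactobacillus, and the control group held 2 mice. All 4 livers were taken 20 days after inoculation. The labels spell out neither LB1 nor what the control mice received, and no genotype, transgene or age beyond the strain was given. Each array stands for 1 mouse, so that 2 animals carry each group's spread.

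Hepatocytes take up amino acids from portal blood for protein synthesis, gluconeogenesis and urea formation, and they release glutamine. Sodium-coupled carriers of the SLC38 family (systems A and N) move small neutral amino acids and glutamine against their gradients. Exchangers built from the heavy chain Slc3a2 and a light chain such as Slc7a5 trade large neutral amino acids across the membrane. In rodent liver, glutamine is broken down around the portal vein and made from glutamate and ammonia around the central vein, where Slc1a2 imports glutamate.

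The probes on which the results turn are shown here, since Slc38a2 and Slc1a4 gave differences of opposite sign at different tested probes. Positions are those of the array files, in build mm9, and each sequence is read 5′ to 3′ on the strand named. No annotation of that build was used here, so exon and untranslated region are not stated by coordinate. Whole probes are given for the Slc38a4 probe that maps across a gap of 2616 bases, for the brightest Slc1a2 probe and for the upstream Slc3a2 probe. The others are given by their first 30 bases. Capitals mark the ATG that opens the Slc3a2 coding sequence.
Slc38a4, brightest probe, chr15:96825482-96825541, minus strand: ctaacctggaagtatccacttgtgtagtta
Slc38a4, upstream probe, chr15:96843897-96846572, minus strand: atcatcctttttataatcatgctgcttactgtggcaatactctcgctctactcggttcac
Slc38a2, brightest probe, chr15:96518491-96518550, minus strand: aaggttccaaatgaatttcaggccaaattc
Slc38a2, probe 1645 bases upstream, chr15:96520136-96520195, minus strand: ttgaatgtgcctaacggaaccattcgatgt
Slc38a2, probe 8931 bases upstream, chr15:96527422-96527481, minus strand: tgtgacagttgagaaattttggttagttga
Slc38a2, probe 10022 bases upstream, chr15:96528513-96528572, minus strand: caaagaatagtgttacttttagatttcaaa
Slc1a2, brightest probe, chr2:102617706-102617765, plus strand: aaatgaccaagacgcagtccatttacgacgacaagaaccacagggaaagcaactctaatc
Slc1a4, brightest probe, chr11:20203448-20203507, minus strand: ggtcagtctattactacagtttgactaggt
Slc1a4, probe 915 bases downstream, chr11:20202533-20202592, minus strand: aggggaactaaactacaaattatgtctatg
Slc3a2, upstream probe, chr19:8788183-8788242, minus strand: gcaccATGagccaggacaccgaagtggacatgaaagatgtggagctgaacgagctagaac

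Values below are log2 of the processed signal minus the 75th percentile of the same array, and a difference is LB1 minus control on that scale. The arrays of the LB1 livers were dimmer. Their 75th percentiles were 147 and 80.8 signal units, against 411 and 415 on control arrays, and 22921 and 20311 of their 43379 spots were well above background, against 25861 and 24736. The 6 spike-in RNAs, added at known amounts as a scale, were 1.37-fold brighter on LB1 arrays. Set against these spike-ins, LB1 arrays read the median tested probe 4.64-fold lower. With the 75th percentile as the scale the median tested gene lay at a difference of 0.29, and the share of higher among all calls was 68.9%. That share was 48.1% after quantile normalization, 23.5% with array medians and 0.52% with the spike-ins as the scale. Directions are therefore relative to the rest of the array: with spike-in scaling all 18 tested transporter probes had negative differences. Correlations of all probes were 0.973 between LB1 arrays, 0.989 between control arrays and 0.906 to 0.950 across groups.

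Of the 9 hepatocyte markers 2 were higher and 2 lower in LB1 livers, with a median difference of -0.13. Their summed levels, as multiples of the 75th percentile, were 1438 and 1838 on LB1 arrays and 1100 and 1141 on control arrays. Without Alb, saturated on all 4 arrays, and Apoa1, saturated on LB1 replicate 1 and both control arrays, the other 7 summed to 532 and 456 on LB1 arrays, against 768 and 816 on control arrays. Among these 7, Tat was saturated on both control arrays and Serpina1c, Fga and Cps1 on control replicate 2. The control sums are thus lower limits. Markers left out of sums, here and below, were chosen after their values were seen. Mesothelial markers summed to 12.1 and 40.3 on LB1 arrays, against 1.20 and 0.177 on control arrays, with 5 of 6 tested markers higher. Lrrn4, among these 5, was tested only through the LB1 arrays, as its control signals were not well above background. Erythroid markers summed to 545 and 629 on LB1 arrays, against 158 and 90.9 on control arrays, mostly through Hba-a1, saturated on LB1 replicate 1; without it the sums were 36.4 and 34.3 on LB1 arrays and 7.69 and 5.40 on control arrays. Of 4 tested erythroid markers 3 were higher and Tfrc was lower (-2.05, adjusted p = 0.020). Tfrc was well above background on control arrays only, and so was tested only through the group where it is high. Striated muscle markers summed to 2.98 and 7.86 on LB1 arrays, against 0.352 and 0.136 on control arrays, with 3 of 3 tested higher. Among these 3, Acta1 was well above background on LB1 arrays only, and so was tested only through the group where it is high. The muscle markers Ckm, Myl2, Tnnt2 and Actn2 were above background on no array. Neutrophil markers summed to 5.06 and 15.4 on LB1 arrays, against 2.38 and 3.05 on control arrays, with 1 of 3 higher. Of stellate cell and lymphocyte markers 4 of 9 and 4 of 8 tested were higher and 0 lower, and of cholangiocyte markers 2 of 5 were higher and 1 lower. Of 9 Kupffer cell markers 0 were higher and 2 lower, and of 9 sinusoidal endothelial markers 1 was higher and 1 lower. For comparison, 21.7% of all tested genes were higher and 9.78% lower. Exocrine pancreas markers summed to 2.46 and 1.26 on LB1 arrays and 6.90 and 5.84 on control arrays, but without Amy2a5 to 0.998 and 0.547 on LB1 arrays and 0.789 and 0.526 on control arrays. Of 3 tested pancreas markers only Amy2a5 passed the test, as lower, and 5 others were above background on no array. The part of these differences, and of the dimmer LB1 arrays, in the transporter values was not tested.

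Taking each gene by its brightest probe, 2 of the 10 transporters (Slc38a4 and Slc38a2) were lower in LB1 livers and 1 (Slc38a3) was higher, by limma with adjusted p under 0.05 over 22969 tested probes. Over all 15777 tested genes 9.78% were lower and 21.7% were higher by the same rule. The members' median difference was -0.01, which is 0.30 below the median of all tested genes. For 4 members both LB1 arrays lay below both control arrays and for 4 they lay above, against 27.5% and 49.2% of all tested genes. In 2 members, Slc1a4 and Slc7a2, the groups overlapped. Over single probes, which share a gene and are not independent, 6 of 18 were lower and 1 was higher, against 13.2% and 19.2% of all tested probes. After quantile normalization 2 members were lower and 0 higher, where 13.1% and 12.1% of all tested genes were. At an unadjusted p under 0.05 that fit gave 4 lower members and 0 higher. Over all 15777 tested genes it then gave 3384 lower and 3602 higher. Every member call was lost in limma fits without either control replicate, in which the lone control mouse is taken to vary like the LB1 pair. Without control replicate 1 there were 95 higher and 6 lower genes over the whole array, and without control replicate 2 there were 0 and 1. The members' median difference was -0.19 without control replicate 1 and 0.18 without control replicate 2, against 0.29 over all tested genes each time.

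**Figure D1:**
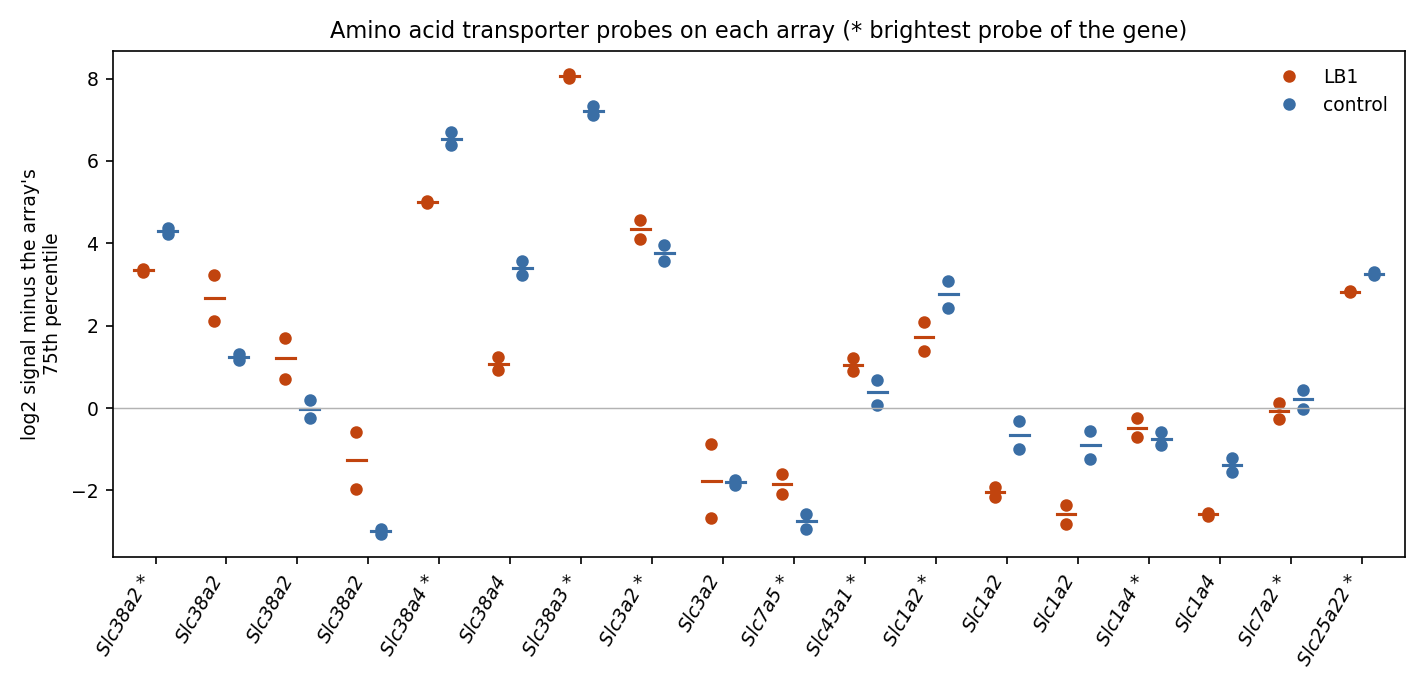
Log2 signal minus the array's 75th percentile for the 18 tested transporter probes, with LB1 arrays left and control arrays right in each column. Points are arrays, short lines are group means and a star marks the brightest probe of a gene; the probes of Slc38a4 lie lower on LB1 arrays, while those of Slc38a2 differ in direction.

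Slc38a4, a system A carrier found mostly in liver, had the largest fall among the 10 genes by brightest probe. That probe read 5.03 and 4.99 in LB1 livers, against 6.38 and 6.69 in control livers. The groups lay well apart, and the raw signals were 4807 and 2560 units on LB1 arrays and 34167 and 42954 on control arrays. The difference was -1.53 ± 0.23 (SE, n = 2 each), or 2.88-fold lower, with an adjusted p of 0.022. The upstream probe, whose sequence crosses a gap in the genome, read 0.92 and 1.24 in LB1 livers and 3.24 and 3.58 in control livers. Its difference was -2.33 ± 0.25, or 5.02-fold lower (adjusted p = 0.020). Within the slide that held replicate 1 of each group the differences at the brightest and the upstream probe were -1.35 and -2.32, and within the other slide they were -1.71 and -2.34. With the slide as a block the adjusted p was 0.031 for each. Both probes stayed lower in LB1 livers after quantile normalization (-1.91 and -2.44), with array medians (-2.16 and -2.96) and with normexp background correction (-2.06 and -2.45), past the test each time. In bulk liver, fewer cells of a type and less RNA per cell cannot be told apart.

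Slc38a2, the system A carrier that cells raise when amino acids are short, gave opposite differences along the gene. Its brightest probe, the one nearest the 3′ end, read 3.38 and 3.30 in LB1 livers, against 4.22 and 4.37 in control livers. That is a difference of -0.96 ± 0.21, or 1.94-fold lower (adjusted p = 0.032; 0.048 with the slide as a block). The probe 1645 bases upstream read 2.12 and 3.22 in LB1 livers and 1.32 and 1.17 in control livers, a difference of 1.42 ± 0.41 that missed the threshold (adjusted p = 0.053). LB1 lay above control here, the opposite of the brightest probe.

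The probes 8931 and 10022 bases upstream ran the same way as the one at 1645 bases. At 8931 bases the values were -1.96 and -0.58 in LB1 livers and -2.93 and -3.06 in control livers (difference 1.72 ± 0.48, adjusted p = 0.0504). At 10022 bases they were 0.72 and 1.71 in LB1 livers and -0.24 and 0.18 in control livers (difference 1.24 ± 0.40, adjusted p = 0.067). With the slide as a block these 2 gave adjusted p-values of 0.045 and 0.038. Without LB1 replicate 1 all 3 upstream probes passed the test, at 1.98, 2.41 and 1.73 in the order of their distance, and without LB1 replicate 2 the one at 8931 bases passed, at 1.03 (adjusted p = 0.042). The file describes these last 2 probes by an embryonic heart cDNA clone and the other 2 by the Slc38a2 reference mRNA.

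Within an array, the ratio of 2 probes does not depend on the array's scale. The log2 ratio of the brightest Slc38a2 probe to the probe at 1645 bases was 1.26 and 0.08 in LB1 livers, against 2.91 and 3.20 in control livers. Against the probes at 8931 and 10022 bases the ratio differed by -2.68 and -2.20 between LB1 and control, and the groups did not overlap in any of the 3 ratios. With normexp the 3 ratios differed by -2.33, -2.91 and -2.34 in the order of the probes' distance. The probes of Slc38a2 thus changed unequally whatever single factor scales each array; which of them follows the whole transcript was not tested.

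**Figure D2:**
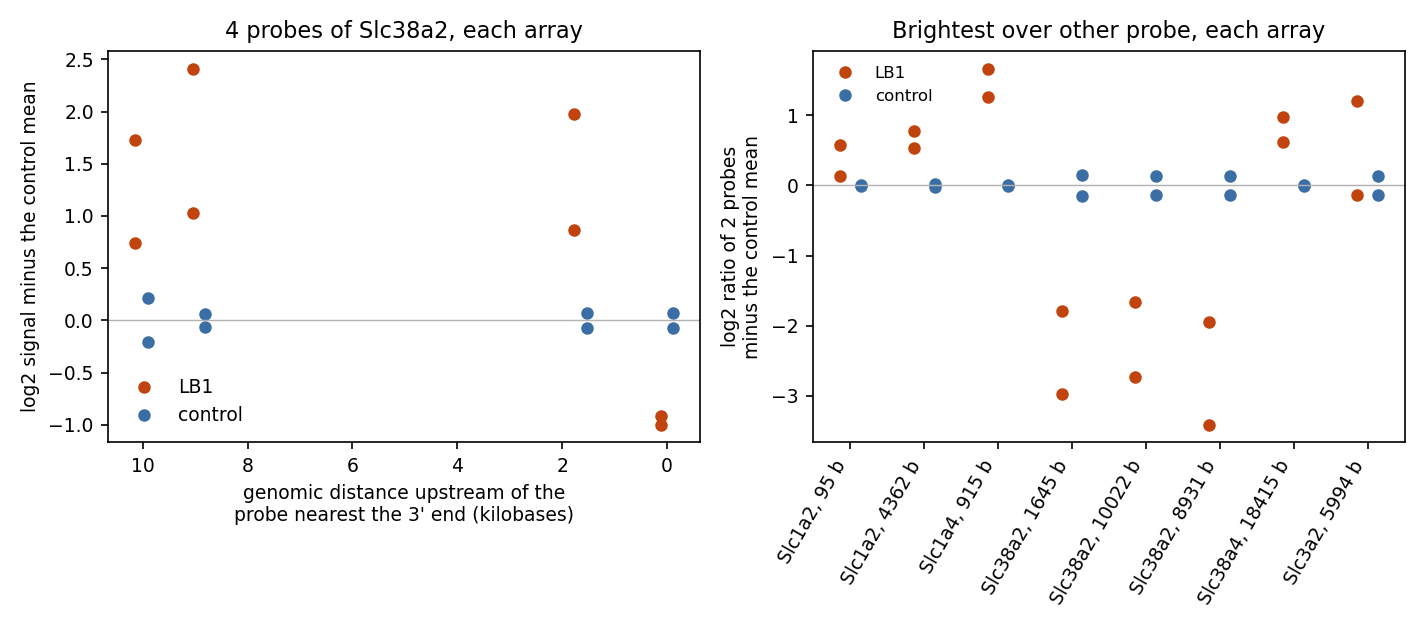
Left, the 4 probes of Slc38a2 as log2 signal minus the mean of the control arrays, against genomic distance in kilobases from the probe nearest the 3′ end; LB1 points lie above control points at the 3 upstream probes and below them at the 3′ probe. Right, the log2 ratio of the brightest to each other probe of a gene within each array, minus its control mean, labelled by the bases (b) between the probes. Only Slc3a2 overlaps between groups on this scale. The Slc1a2 ratios differ by 0.36 and 0.65 here but by -1.08 and -1.22 with normexp, so their direction depends on the setting. Normexp adds an offset of 50 units, above the raw LB1 signals of the dimmer Slc1a2 probes (15.8 to 32.8 units), and cannot decide that direction.

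Slc38a3, the system N carrier through which hepatocytes take up and release glutamine, was the member called higher. Its single probe (chr9:107553825-107553884, minus strand) read 8.01 and 8.12 in LB1 livers and 7.12 and 7.33 in control livers. The difference was 0.84 ± 0.22, or 1.79-fold higher (adjusted p = 0.043). The probe was saturated on the array of control replicate 2, which makes this difference an upper limit. The call did not hold with the slide as a block (adjusted p = 0.059) or without LB1 replicate 2 (difference 0.78, adjusted p = 0.067). The difference was 0.27 with normexp, 0.20 with array medians and -0.17 after quantile normalization, none of them past the test.

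**Figure D3:**
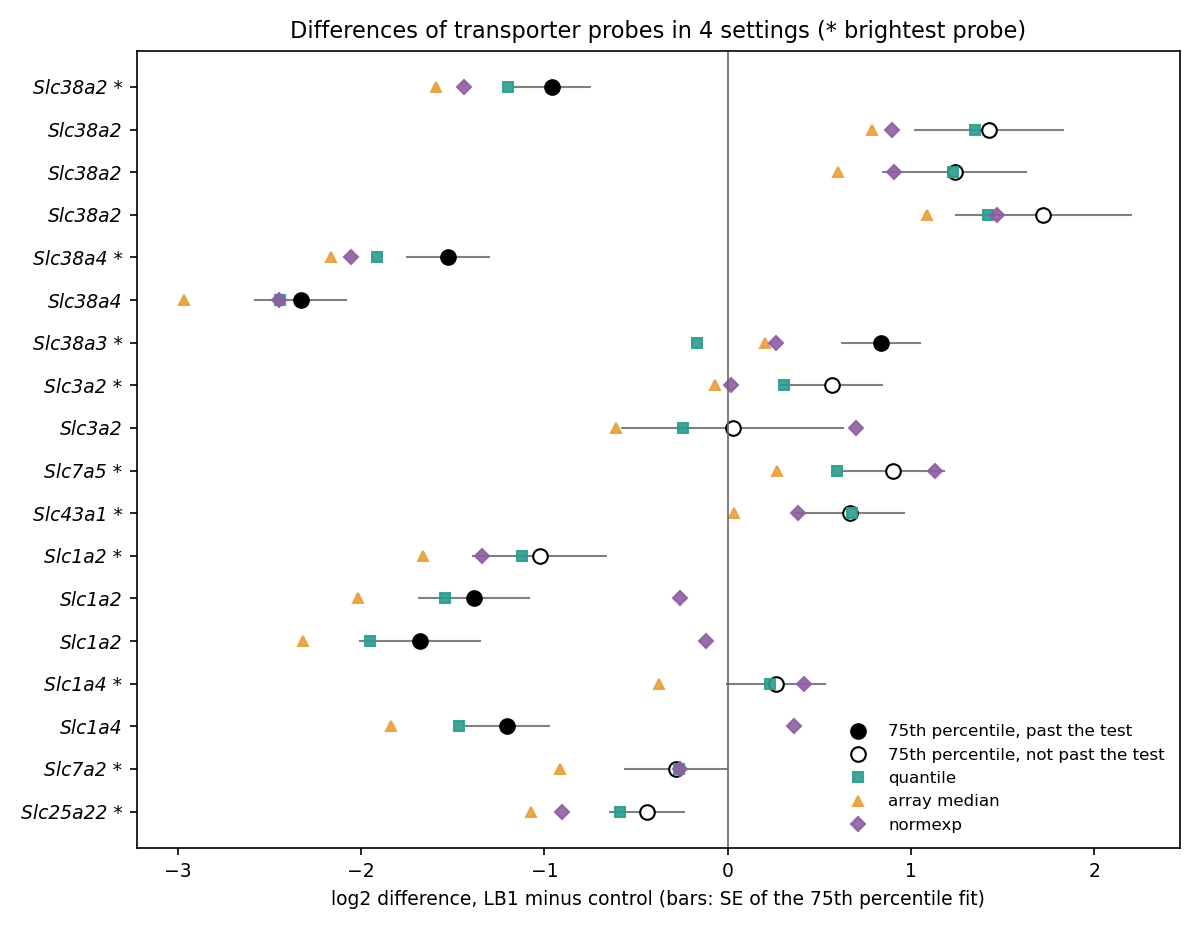
Log2 difference, LB1 minus control, of each tested transporter probe in 4 settings. Circles with SE bars are the 75th percentile fit, filled where adjusted p was under 0.05, and the other symbols are quantile normalization, array medians and normexp; the Slc38a4 probes lie left of 0 in every setting, and Slc38a3 spans 0.

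The heavy chain Slc3a2 anchors several light chains at the cell surface. Its brightest probe (chr19:8782189-8782248, minus strand) read 4.11 and 4.57 in LB1 livers, against 3.58 and 3.96 in control livers. LB1 lay above control without overlap, but the difference of 0.57 ± 0.28 did not pass the test (adjusted p = 0.168), and it was -0.07 with array medians. The upstream probe over the start codon read -2.68 and -0.88 in LB1 livers and -1.86 and -1.75 in control livers. The LB1 mice lay on either side of the control mice, at 0.03 ± 0.61 (adjusted p = 0.975), with differences of -0.82 within one slide and 0.87 within the other. It was 0.93 without LB1 replicate 1 (adjusted p = 0.030) and -0.88 without LB1 replicate 2 (adjusted p = 0.050), so that its direction rested on which LB1 mouse was kept.

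Slc7a5, the light chain that pairs with Slc3a2 to exchange large neutral amino acids such as leucine, has 1 probe (chr8:124405142-124405201, minus strand). It read -2.09 and -1.61 in LB1 livers and -2.93 and -2.58 in control livers. The difference of 0.90 ± 0.28 missed the threshold (adjusted p = 0.061). It was 1.13 with normexp (adjusted p = 0.0012) and 1.14 without LB1 replicate 1. The raw signals were 34.5 and 26.5 units on LB1 arrays and 54.0 and 69.4 on control arrays. Normexp adds an offset of 50 units, as large as such signals, so its result cannot decide the direction of this dim probe.

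Slc43a1 carries branched-chain and other large neutral amino acids without sodium or exchange. Its probe (chr2:84703269-84703328, plus strand) read 0.89 and 1.21 in LB1 livers, against 0.08 and 0.68 in control livers. The groups did not overlap, and the difference of 0.67 ± 0.30 did not pass the test (adjusted p = 0.137).

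Slc1a2, the sodium-dependent glutamate carrier of hepatocytes around the central vein, read lower in LB1 livers at each of its 3 tested probes. The brightest read 1.38 and 2.09 in LB1 livers and 2.43 and 3.08 in control livers, a difference of -1.03 ± 0.37 that did not pass (adjusted p = 0.085; 0.041 with the slide as a block). A probe 95 bases downstream, which the file assigns to transcript variant 3, read -2.16 and -1.91 in LB1 livers, against -0.99 and -0.32 in control livers. A probe 4362 bases downstream read -2.81 and -2.35 in LB1 livers and -1.24 and -0.56 in control livers.

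The differences at these 2 dimmer probes were -1.38 ± 0.31 (adjusted p = 0.031) and -1.68 ± 0.33 (adjusted p = 0.027), both past the test. With normexp they were -0.26 and -0.12 and not past it, whereas the brightest probe then passed at -1.34 (adjusted p = 0.0072). On LB1 arrays the raw signals of the 2 dimmer probes were 15.8 to 32.8 units, below the normexp offset of 50 units. Without either LB1 replicate the probe at 95 bases had adjusted p-values of 0.056 and 0.055. The remaining probe lies on the opposite strand and was not well above background on any array, so it was not tested. A probe that the array file names 2900019G14Rik, and that its accession ties to Slc1a2 in the RefSeq table, gave -0.46 ± 0.38 (adjusted p = 0.372) and is not counted among the 19. Of the 10 perivenous markers, Slc1a2 among them, 1 was higher and 1 lower, with a median difference of -0.37. The median of the 7 tested periportal markers was also -0.37, with 1 higher and 2 lower. Perivenous markers summed to 491 and 417 on LB1 arrays and 322 and 350 on control arrays. Without Cyp2e1, saturated on both control arrays, the sums were 179 and 217 on LB1 arrays and 196 and 229 on control arrays. The part of the perivenous markers in the Slc1a2 values was not tested.

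Slc1a4 exchanges alanine, serine, cysteine and threonine. Its brightest probe read -0.25 and -0.71 in LB1 livers and -0.90 and -0.58 in control livers, which overlapped, with a difference of 0.26 ± 0.27 (adjusted p = 0.475). The probe 915 bases downstream read -2.56 and -2.61 in LB1 livers, against -1.55 and -1.22 in control livers. There the LB1 arrays were lower, at -1.20 ± 0.23 (adjusted p = 0.026). With normexp the differences were 0.42 at the brightest probe, then past the test (adjusted p = 0.031), and 0.36 at the downstream one (adjusted p = 0.063). The log2 ratio of the 2 probes was 2.31 and 1.90 in LB1 livers and 0.65 and 0.63 in control livers, a difference of 1.46 that was 0.052 with normexp. The unequal change of the Slc1a4 probes thus depended on the setting. On LB1 arrays the raw signals of the downstream probe were 24.9 and 13.2 units, below the offset of 50 units that normexp adds. Normexp therefore cannot decide whether these 2 probes changed unequally.

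Slc7a2, the carrier of arginine, lysine and ornithine, did not separate the groups. Its probe (chr8:42002869-42002928, plus strand) read 0.13 and -0.26 in LB1 livers and -0.01 and 0.45 in control livers, a difference of -0.28 ± 0.28 (adjusted p = 0.460). Slc25a22 brings glutamate into mitochondria together with a proton. Its probe (chr7:148616089-148616148, minus strand) read 2.81 and 2.85 in LB1 livers, against 3.22 and 3.31 in control livers. The groups did not overlap, and the difference of -0.44 ± 0.21 did not pass the test (adjusted p = 0.156), though it did with normexp (-0.90, adjusted p = 0.0014).

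Promoter windows of 300 bases, from 250 before to 50 after a gene start in RefSeq (GRCm38.p6), were matched for 7 of the 10 genes, with 11 windows in all. They were searched on both strands for the amino acid response motif TGATGNAA and the E-box CACGTG, which reads the same on both strands. TGATGNAA was present in 3.97% of 32851 mouse windows and, among the members, in that of Slc1a4, at bases -4 to 4 from the start. CACGTG was present in 7.15% of windows and, among the members, in that of Slc43a1, at bases -64 to -59. Each follows with the 50 bases before it and the match in capitals, on the strand of the gene; neither gene's brightest probe passed the test.
Slc1a4, chr11:20332710-20332767, minus strand, GRCm38.p6: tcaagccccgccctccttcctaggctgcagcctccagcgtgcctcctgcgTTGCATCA
Slc43a1, chr2:84840209-84840264, plus strand, GRCm38.p6: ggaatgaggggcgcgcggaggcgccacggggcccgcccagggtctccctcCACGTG

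Among 56 other amino acid transporters 29 were tested, of which 9 were higher (31.0%) and 2 lower (6.90%) in LB1 livers, with a median difference of 0.54. Over all tested genes the shares were 21.7% and 9.78% and the median 0.29. The higher ones included Slc1a6, a glutamate carrier known from cerebellum (2.34 ± 0.23, adjusted p = 0.020), and Slc7a8, another light chain of Slc3a2 (1.67 ± 0.23, adjusted p = 0.021). Slc1a6 was dim, at -2.21 and -2.41 in LB1 livers and -4.55 and -4.75 in control livers. Slc36a3 also counted as higher (0.91, adjusted p = 0.039), though only its control signals stood clear of background. After quantile normalization the difference was 1.75 for Slc1a6 and -0.06 for Slc36a3. With the spike-ins as the scale 0 of the 29 were higher. The part of the dimmer LB1 arrays in these differences was not tested. Ctns, which exports cystine from lysosomes, was higher by 1.28, and the taurine carrier Slc6a6 by 1.31, although a further Slc6a6 probe read -0.54. Slc25a12, a mitochondrial aspartate-glutamate carrier (-1.35, adjusted p = 0.027), and Slc3a1, the heavy chain related to Slc3a2 (-1.57, adjusted p = 0.031), were lower.

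Close relatives of the members gave the following values. Slc38a1, a system A carrier, was higher in LB1 livers at 1.29 ± 0.31 (adjusted p = 0.036), with 0.76 and -0.51 at its other probes. Slc43a2, the relative of Slc43a1, was higher at 2.01 ± 0.48 (adjusted p = 0.036), with 0.19 at its other probe. Neither passed the test after quantile normalization. The neutral exchanger Slc1a5 (0.52), the light chain Slc7a7 (0.56) and the lysosomal sensor Slc38a9 (-0.30) did not pass, and Slc7a6, Slc7a11 and Slc25a18 were not tested because in neither group were they well above background on both arrays.

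Of 34 genes of the response to amino acid shortage 29 were tested, with 8 higher (27.6%), 2 lower (6.90%) and a median of 0.36, against 21.7%, 9.78% and 0.29 over all tested genes. Phgdh, which opens serine synthesis, was higher by 2.36 ± 0.40 (adjusted p = 0.023), and Sesn2, a leucine sensor, by 1.82 ± 0.34 (adjusted p = 0.025). The stress factors Nupr1 and Cebpb were higher by 1.71 and 1.49. The lower genes were Gars and Iars, the synthetases that charge tRNA with glycine and isoleucine (-1.88 and -1.15). Synthetases were also among the higher genes, namely Sars for serine (1.66, adjusted p = 0.027) and Aars for alanine (0.98, adjusted p = 0.035). A further Aars probe read -1.48. Atf4, the factor that drives this response (-0.78, adjusted p = 0.062), and Asns, asparagine synthetase and a usual target (0.76, adjusted p = 0.053), did not pass the test.

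Of 30 enzymes of glutamine and glutamate 27 were tested, with 1 higher (3.70%), 5 lower (18.5%) and a median of 0.12, against 21.7%, 9.78% and 0.29 over all tested genes. Gmps, which makes GMP with glutamine nitrogen, differed by -2.29 at its brightest probe and by 1.11 and -2.22 at its others. Got1 (-1.61 ± 0.40, adjusted p = 0.039), the cytosolic aspartate aminotransferase, was lower, and so was Abat, which degrades GABA (-1.30, with 1.49 at a further probe). Glud1, glutamate dehydrogenase, was the higher gene (1.07, adjusted p = 0.027). It was saturated on both control arrays, which makes this an upper limit, and it differed by -0.43 after quantile normalization. Glul, glutamine synthetase, did not pass at its brightest probe (0.63, adjusted p = 0.309) and read 1.92 and -1.74 at its others, and the liver glutaminase Gls2 did not pass either (-0.37, adjusted p = 0.393).

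Of 29 genes through which mTORC1 and GCN2 sense amino acids 27 were tested, with 6 higher (22.2%), 3 lower (11.1%) and a median of -0.05. The shares lay near the 21.7% and 9.78% of all tested genes, whose median was 0.29. Fnip2, a partner of folliculin (1.44, adjusted p = 0.023), Lamtor4, part of the lysosomal Ragulator scaffold (1.45, adjusted p = 0.026), the leucyl-tRNA synthetase Lars (0.98, adjusted p = 0.030) and Sesn2 were higher. Rragc, a Rag GTPase (-1.20, adjusted p = 0.026), Lamtor5, another Ragulator subunit (-1.01, adjusted p = 0.031), and Eif2ak4, the GCN2 kinase (-0.78, adjusted p = 0.048), were lower, with 0.74 at a further probe of Eif2ak4.

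**Figure D4:**
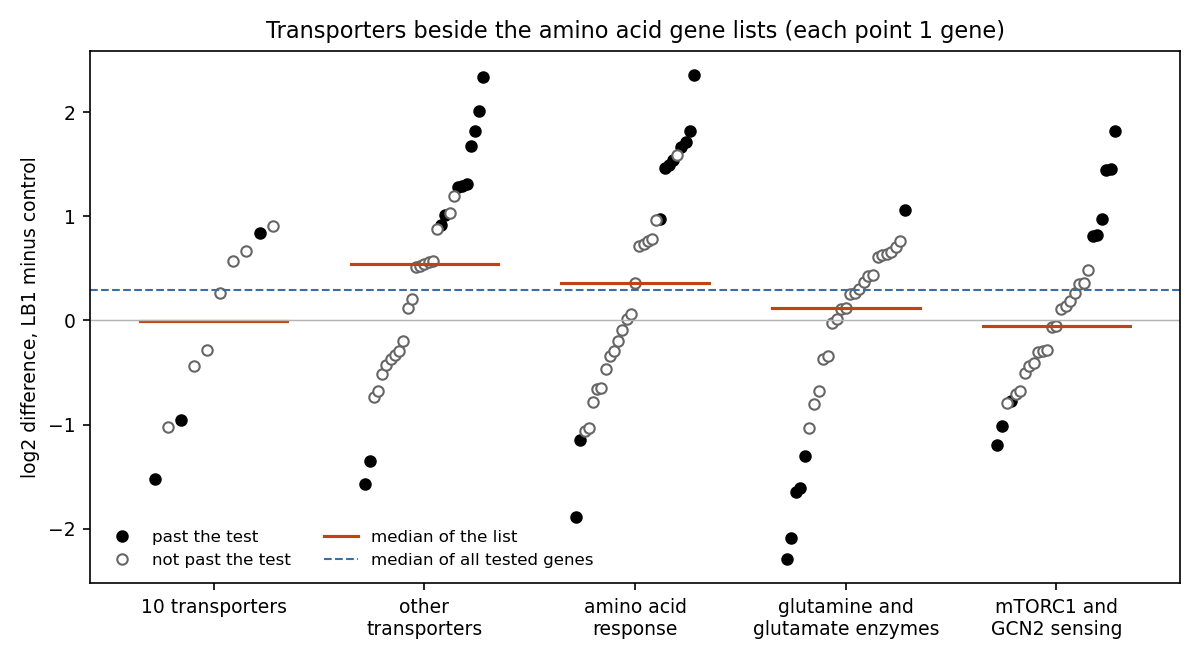
Log2 difference, LB1 minus control, of every tested gene of the 10 transporters and of 4 amino acid gene lists, by brightest probe and sorted within each list. Filled points had adjusted p under 0.05, solid lines are list medians and the dashed line is the median of all tested genes at 0.29; the median of the 10 transporters lies near 0.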

How the data were processed

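Total liver RNA, labelled with Cy3, was hybridised to 4 one-colour Agilent arrays of 60-base probes. The deposited values used here are processed signal intensity, after background and spatial correction by Feature Extraction 10.5.1.1, per the file headers. The deposited series table, an intensity scale with processing not given in the sources used here, equalled the mean spot signal rounded to whole units at 100% of spots and served as an alternative; it is uncentred and not background-corrected. Log2 intensity minus each array's 75th percentile over 43379 non-control spots was fitted with limma 3.58.1 (lmFit, eBayes) in R 4.3.3. Spots with outlier flags were left out and spots of a probe averaged. Testing took the probes that in 1 group or both stood well above background on each array (22969 of 41174), with Benjamini-Hochberg adjustment over all of them and a threshold of 0.05. A gene was taken by its brightest tested probe. The procedure was tested on simulated data.

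Members and lists were chosen with earlier results of these data known. All member probes were named. From each list the 4 genes with the smallest p in each direction were named, where the groups did not overlap, and relatives fixed by role were named whatever their values. Slc36a3, Sars and Aars were named besides, after their values were seen. Some genes that these rules name are not reported here. List symbols were matched through the RefSeq table. Each slide held replicate 1 or replicate 2 of both groups, and was scanned separately. Deviations from group means correlated at 0.151 for same-numbered arrays, a value that is the same for both pairs by construction. With 2 arrays a group, the number of arrays limits the precision, and an exact permutation test of one value could not go below p = 0.333.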

Additional observations from a re-analysis of the deposited data

How the results depend on the processing

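Counts of calls under other settings are given as higher and lower in LB1 livers, for the 10 transporters, the other transporters, the amino acid response, the glutamine and glutamate enzymes and the sensing genes, in that order. Brackets hold the shares of all tested genes called higher and lower in the same setting. By limma on 75th percentile values they were 1 and 2, 9 and 2, 8 and 2, 1 and 5, and 6 and 3 (21.7% and 9.78%). With normexp they were 2 and 4, 12 and 8, 13 and 10, 5 and 10, and 7 and 9 (46.0% and 20.6%), and with the series table values 2 and 4, 15 and 7, 13 and 8, 4 and 7, and 8 and 5 (45.9% and 15.7%). Array medians gave 0 and 4, 4 and 7, 4 and 8, 0 and 9, and 1 and 9 (7.87% and 25.6%). Quantile normalization gave 0 and 2, 6 and 3, 7 and 3, 0 and 6, and 4 and 6 (12.1% and 13.1%), and cyclic loess 0 and 2, 6 and 3, 7 and 3, 0 and 6, and 4 and 5 (14.2% and 13.1%). Spike-in scaling, chosen after seeing the data, gave 0 and 8, 0 and 17, 0 and 19, 0 and 26, and 0 and 21 (0.37% and 70.3%). Trend and robust settings gave 1 and 3, 11 and 4, 10 and 5, 3 and 6, and 6 and 4 (25.8% and 12.2%). With probes well above background on all 4 arrays they were 2 and 2, 11 and 4, 11 and 3, 4 and 5, and 6 and 4 (31.2% and 13.2%), and with no filter 1 and 2, 22 and 2, 11 and 2, 3 and 5, and 6 and 3 (44.2% and 5.72%), with more or fewer genes tested. Means over the probes of a gene gave 1 and 1, 7 and 2, 8 and 3, 3 and 5, and 7 and 2, with no share over all genes taken. Leaving out saturated probes gave 0 and 2, 9 and 2, 8 and 2, 0 and 6, and 6 and 3 (20.9% and 9.92%). The replicate block, which is also the slide block, gave 0 and 3, 8 and 2, 10 and 2, 1 and 4, and 4 and 2 (20.9% and 8.79%), and the labels do not say that the numbers pair mice. The methods' t-test with 2-fold and unadjusted p gave 0 and 1, 4 and 1, 5 and 1, 1 and 2, and 3 and 2 (11.2% and 5.87%), and after Benjamini-Hochberg 0 in every list and over all tested genes. At an unadjusted p under 0.05 alone it gave 1 higher and 3 lower of the 10 transporters. Over all 15769 tested genes it then gave 3100 higher and 1693 lower.

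With 1 array left out in turn, the median difference of the 10 transporters ranged from -0.19 to 0.18. Medians ranged from 0.27 to 0.85 for the other transporters and from 0.25 to 0.46 for the response genes. For the enzymes they ranged from 0.008 to 0.25 and for the sensing genes from -0.15 to 0.03. Over all tested genes the range was 0.28 to 0.31. Every call in these lists was lost without control replicate 1 and without control replicate 2, as were nearly all calls over the whole array. Of single probes, spike-in scaling turned the direction of Slc38a2 (-1.14, -0.66 and -0.95 at the upstream probes), Slc43a1 (-1.71), Slc38a3 (-1.54), Slc3a2 (-1.81 and -2.35), Slc7a5 (-1.47) and Slc1a4 (-2.11). Quantile normalization turned Slc38a3 (-0.17) and the upstream Slc3a2 probe (-0.24), which also turned with cyclic loess (-0.050), without LB1 replicate 2 (-0.88) and without control replicate 1 (-0.03), over a range of -0.88 to 0.93 with 1 array left out. Array medians turned both Slc3a2 probes (-0.068 and -0.61) and the brightest Slc1a4 probe (-0.37), and normexp turned the downstream Slc1a4 probe (0.36). The cause was not tested. Over the 75th percentile, normexp, quantile, array median and loess settings, 8 transporter probes were lower and 5 higher in all 5 settings. The same share over all probes was not taken, so this count has no reference. Dim LB1 arrays limit probes near background, and saturation limits Slc38a3.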
